A study of Mus musculus with 15 samples.

Results

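The AP-1 and EGR immediate early factors are the transcription factors Fos, Fosb, Fosl1, Fosl2, Jun, Junb, Jund, Atf3, Egr1 and Egr2. Their levels were read on Affymetrix Mouse Gene arrays. The members were taken by name: a probe set (the group of probes summarised to give a gene's value) counted if its annotation named exactly 1 of these genes. All 10 were measured, each by 1 such probe set, out of 19938 genes in all.

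Epithelial cells were taken from the mammary glands of female mice aged 8 weeks, grown in a medium with 5% horse serum, 20 ng/mL EGF, insulin, cholera toxin and hydrocortisone and harvested while proliferating. Labels put 3 arrays in each of 5 groups: wild type for all 3 genes (WT), p53 knockout (p53-), p53 and Rb knockout (p53- Rb-), p53 knockout with MYC overexpression (p53- Myc+) and all 3 changes (p53- Rb- Myc+). Cre recombinase from an adenovirus made the deletions and a retrovirus carried MYC. The labels do not say whether WT cells received a control virus, nor whether replicates were separate mice or cultures. The p-values below therefore reflect only how these samples spread, which may be technical.

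Fos and Jun family proteins bind DNA in pairs through leucine zippers, and these pairs are called AP-1. Fos, Fosb, Junb, Atf3, Egr1 and Egr2 are textbook immediate early genes: growth factors such as EGF switch them on within minutes, through ERK kinases and the serum response factor SRF, without new protein synthesis. SRF binds the CArG box, and EGR proteins are zinc finger factors that bind GC-rich sites and induce their own corepressors, the NAB proteins. In mammary cells Fosl1 is known for its part in invasive growth.

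Arrays of a group correlated over genes at r between 0.963 and 0.989, and array medians, taken over all probe sets, lay between 41.28 and 54.9. Rb1 intensity averaged 92.79 ± 9.57 (SD, n = 3) in WT arrays, 161.5 ± 17.3 in p53- arrays and 57.39 ± 6.07 once Rb was deleted. It was also low in p53- Myc+ arrays, which carry no Rb- label, at 36.43 ± 10.8, and lowest with all 3 changes at 18.74 ± 1.09. The mouse Myc probe set went against the Myc+ label, at 929.8 ± 105 in p53- arrays against 128.2 ± 29.5 in p53- Myc+ arrays. It may not read a transgene. Directions with Myc+ below therefore rest on the labels. The labelled cell type was checked with epithelial markers. The 6 luminal markers summed to between 11620 and 13220 on the 9 arrays without the Myc+ label, and with Myc+ to between 137.3 and 198.4, or 576.7 and 650 where Rb was deleted too. Epcam, an epithelial adhesion gene, had a mean of 1634 with p53 loss alone, but 10.26 after MYC was added and 11.57 where Rb was deleted too; the basal keratin gene Krt5 went from 1656 to 5.513 and 9.904. In each Myc+ group 5 of 6 luminal and 5 of 6 basal markers had means below the median of all named genes in that group, which is higher than that of all probe sets. The exceptions were Krt19, at 75.58 without and 489.3 with the Rb- label, and Acta2, a smooth muscle actin gene that fibroblasts can also express, at 2321 and 1807.

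RefSeq (GRCm38.p6) gave promoter sequence for 8 of the 10 members. The promoters shown are those of Fos, the member that varied most between groups, of Egr2, which changed most with the Rb- label beside Egr1, and of Fosb and Fosl2, which hold a match to an EGR site. Capitals in the whole windows mark matches to the AP-1 site TGANTCA, the cAMP response element TGACGTCA, the EGR site GCGNGGGCG, the CArG box, TGACGT and TATAAA, searched on both strands in the 250 bases before each start; TGACGT lies within the cAMP response element, and TGACGT and TATAAA were added after the sequences were seen. The 250 bases are given whole for Fos and Fosl2 (chr12:85473640-85473889, plus strand, and chr5:32136222-32136471, plus strand), and the others as 30 bases around the match (Egr2 at chr10:67537484-67537513 and chr10:67537787-67537816, plus strand, and Fosb at chr7:19310076-19310105, minus strand). In the 30-base stretches capitals mark the CArG box or EGR site alone; a TGACGT match on the other strand begins within the downstream Egr2 stretch, runs past its end and is left in lower case.
Fos: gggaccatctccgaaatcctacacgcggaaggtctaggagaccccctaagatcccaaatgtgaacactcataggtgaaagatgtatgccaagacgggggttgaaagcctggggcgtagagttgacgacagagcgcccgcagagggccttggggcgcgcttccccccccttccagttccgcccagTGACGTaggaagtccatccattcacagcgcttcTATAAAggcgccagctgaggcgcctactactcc
Fosl2: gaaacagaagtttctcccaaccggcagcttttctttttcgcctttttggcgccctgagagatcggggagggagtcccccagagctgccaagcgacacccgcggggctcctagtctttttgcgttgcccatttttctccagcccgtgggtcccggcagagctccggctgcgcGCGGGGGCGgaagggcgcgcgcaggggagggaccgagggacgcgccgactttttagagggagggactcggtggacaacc
Fosb: tgacgcaagcGCGGGGGCGggtcccggagg
Egr2, upstream box: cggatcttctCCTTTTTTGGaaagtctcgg
Egr2, downstream box: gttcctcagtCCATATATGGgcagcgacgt

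A CArG box lay in 4 of the 5 windows of Egr2, at 2 positions, against 1.47% of all 32851 promoter windows of this length. The Egr2 windows that hold the same box overlap. No window of another member held a CArG box, and bases further upstream were not searched. The EGR site was found in the windows of Fosl2 and Fosb and in 4.7% of all windows. TGACGT lay in the windows of Fos, Atf3 and Egr2 (6.47% of all) and TATAAA in that of Fos (12.4%). TGANTCA (6.75% of all) and TGACGTCA (1.55%) were in no window of the 8 members. A match describes letters in the sequence and is no evidence that a factor binds there.

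Changes are log2 fold changes of the intensity plus 16, with SE from a limma fit over all 15 arrays (3 per group). Adjusted p is Benjamini-Hochberg over all 19938 genes of a comparison, and a gene is said to rise or fall at an adjusted p under 0.05.

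Egr1 and Egr2, growth-factor-induced zinc finger factors, fell with p53 loss and rose with Rb loss in p53- cells. Egr1 intensity was 520.5, 514.8 and 458.3 in WT arrays, 125.5, 269.8 and 146.8 after p53 loss, and 535.5, 487.8 and 840.6 when Rb was lost as well. Arrays labelled p53- Myc+ read 324.5, 409.9 and 387.9, and those with all 3 changes 270.7, 272.1 and 348.8. The 3 p53- arrays lay below all 12 others, by a small margin for the highest of them, and p53- replicate 2 and p53- Rb- replicate 3 stood above the other arrays of their groups. Egr1 fell with p53 loss (-1.45 ± 0.23, adjusted p = 7.87e-05) and rose with Rb loss in p53- cells (1.73 ± 0.23, adjusted p = 1.99e-05). Without p53- replicate 2 these changes were -1.76 and 2.03.

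Egr2 intensity was 248.8, 261.2 and 293.6 in WT, 127.6, 185.7 and 117.4 after p53 loss, and 399.8, 364.5 and 594.3 when Rb was lost as well. With the Myc+ label it was 110.5, 144.7 and 126.7 where Rb was intact by label and 70.98, 52.18 and 110.1 where it was not. The 3 p53- Rb- arrays lay above all 12 others. Egr2 fell with p53 loss (-0.85 ± 0.22, adjusted p = 0.00581) and rose with Rb loss (1.55 ± 0.22, adjusted p = 4.27e-05). In the order of levels p53- Rb- arrays stood above WT arrays (0.70 ± 0.22, adjusted p = 0.0351) for Egr2, but did not pass for Egr1 (0.27 ± 0.23, adjusted p = 0.475).

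**Figure D1:**
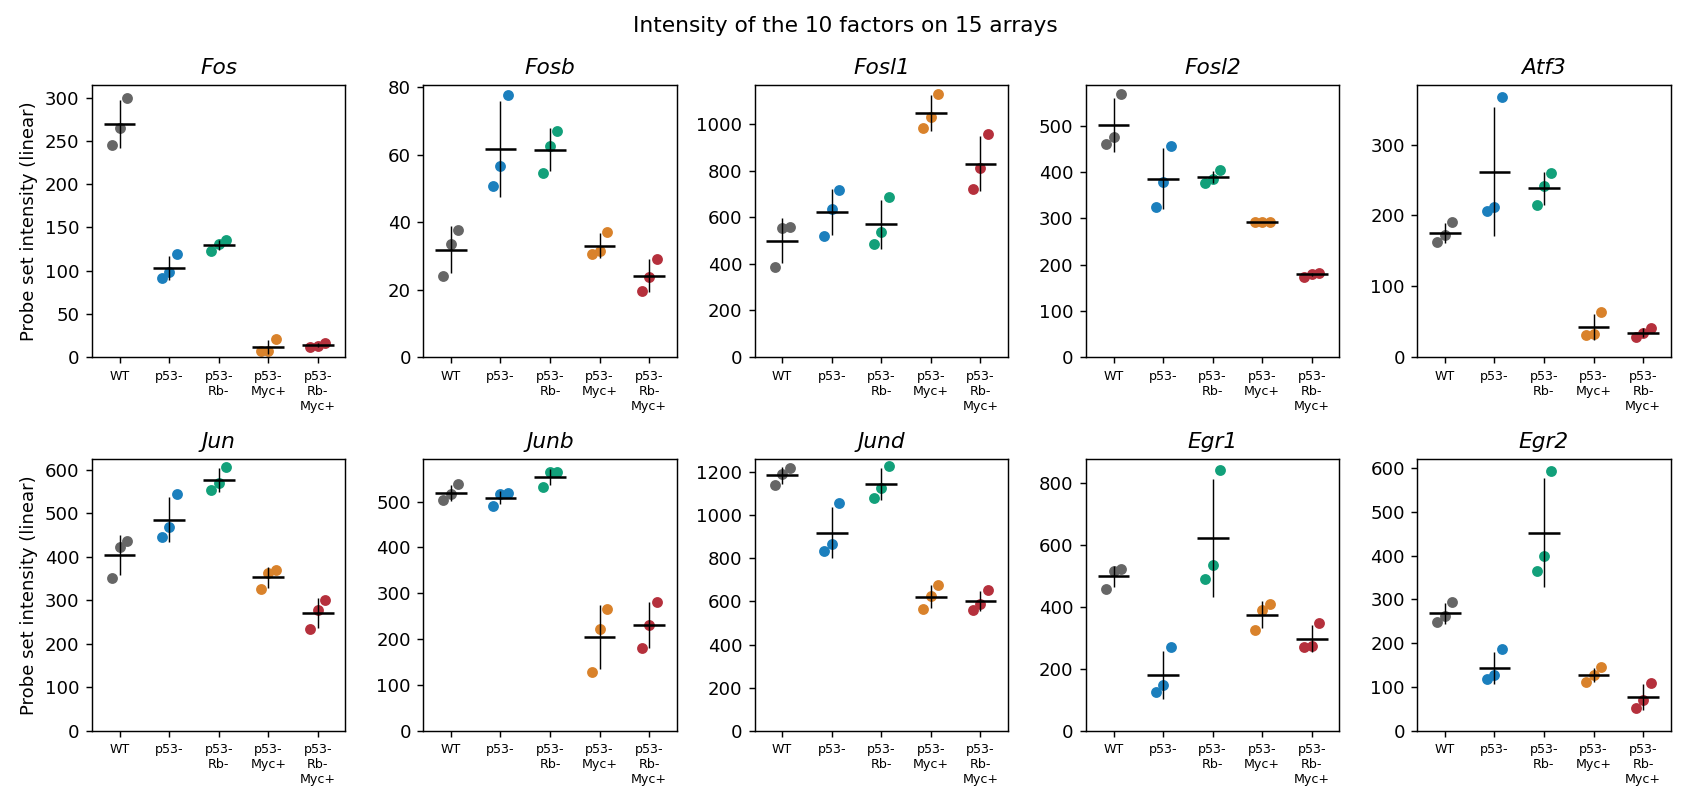
Linear probe set intensity (vertical axes, each from 0) of the 10 factors in the 5 groups, with a point per array, a horizontal bar at the mean and a vertical line of 1 SD (n = 3). Fos, Atf3 and Junb are low in both groups labelled Myc+, and Fosl1 is high there. Egr1 and Egr2 are lower in p53- than in WT and p53- Rb- arrays, and Egr2 is lowest in p53- Rb- Myc+ arrays.

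Among the FOS proteins, Fos itself had the widest range of group means, 3.42 on the log2 scale. Its intensity was 299.9, 265.2 and 244.8 in WT, 98.38, 118.7 and 91.8 after p53 loss, and 123, 134.8 and 130.2 when Rb was lost as well. Arrays labelled p53- Myc+ read 6.353, 20.23 and 7.239, and those with all 3 changes 12.91, 12.06 and 16.33. All 3 WT arrays lay above every other array, and all 6 arrays labelled Myc+ lay below every other and below the array medians. Fos fell with p53 loss (-1.27 ± 0.18, adjusted p = 2.6e-05) and with the Myc+ label in p53- cells (-2.15 ± 0.18, adjusted p = 1.35e-09) and in p53- Rb- cells (-2.29 ± 0.18, adjusted p = 5.13e-10). The size of these changes depends on the constant added: in p53- cells the change with Myc+ was -3.25 with 1 added and -1.15 with 64. With Rb loss the change of Fos was 0.29 (95% interval -0.0746 to 0.663) and did not pass (adjusted p = 0.256).

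Fosl1, which encodes the FOS family protein Fra-1, was the member that rose with the Myc+ label in both backgrounds. Its intensity was 519.7, 716.9 and 634.3 in p53- arrays, against 980.3, 1028 and 1130 in p53- Myc+ arrays, without overlap (0.74 ± 0.18, adjusted p = 0.00294). In p53- Rb- arrays it was 536.4, 485.6 and 687.1, and in p53- Rb- Myc+ arrays 722.3, 810.3 and 955.9 (0.54 ± 0.18, adjusted p = 0.0264). That second call was lost in 6 of 19 alternatives (adjusted p from 0.0017 to 0.119), among them leaving out p53- Rb- replicate 1 or 2 or p53- Rb- Myc+ replicate 2 or 3. WT arrays read 552.2, 386 and 558.2, and neither p53 loss (adjusted p = 0.2) nor Rb loss (adjusted p = 0.656) passed. In the order of group means, p53- Myc+ and p53- Rb- Myc+ (adjusted p = 0.427), then p53- Rb- Myc+ and p53- (adjusted p = 0.109), did not pass as neighbours, although their arrays did not overlap.

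Fosl2, which encodes Fra-2, was the member that fell with the Rb- label among arrays labelled Myc+. Its intensity was 292, 291.6 and 292.8 in p53- Myc+ arrays, against 174.2, 180.3 and 181.7 in p53- Rb- Myc+ arrays (-0.66 ± 0.15, adjusted p = 0.0108). WT arrays read 476.4, 569.4 and 460.2, p53- arrays 324, 456.4 and 378, and p53- Rb- arrays 404.6, 377.8 and 386.5. Each array labelled Myc+ lay below each array without it. The fall with Myc+ passed in p53- Rb- cells (-1.06 ± 0.15, adjusted p = 8.43e-06), and in p53- cells it did not (-0.37 ± 0.15, adjusted p = 0.0703), passing in 5 of 19 alternatives.

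Fosb, which like Fos is a strong transactivator, had intensities from 19.61 to 77.75 over all 15 arrays, close to the array medians. It rose with p53 loss, from 31.8 ± 7 to 61.68 ± 14.2 (0.70 ± 0.17, adjusted p = 0.0041), while Fos fell. With the Myc+ label it fell in p53- (-0.65 ± 0.17, adjusted p = 0.00427) and p53- Rb- cells (-0.95 ± 0.17, adjusted p = 0.000106), to levels that did not differ beyond the test from WT (adjusted p = 0.862 and 0.25).

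Atf3, a stress-induced factor of the ATF family that pairs with JUN proteins, fell with the Myc+ label in both backgrounds. Its intensity was 206.3, 367.2 and 212.2 in p53- arrays, against 32.73, 31.69 and 63.47 in p53- Myc+ arrays (-2.24 ± 0.21, adjusted p = 1.4e-08). It was 241.1, 260.5 and 214.2 in p53- Rb- and 27.74, 34.08 and 41.4 in p53- Rb- Myc+ arrays (-2.34 ± 0.21, adjusted p = 7.3e-09). The groups did not overlap in either pair. With 1 and with 64 added these changes were -2.61 and -1.59, and -2.77 and -1.62. WT arrays, at 173, 162.7 and 191, lay below all p53- arrays, but that difference did not pass (0.49 ± 0.21, adjusted p = 0.0872).

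All 3 JUN family genes fell with the Myc+ label. Junb, which is induced with Fos, read 517.9, 491.4 and 517.3 in p53- arrays, against 222.2, 128 and 264.6 in p53- Myc+ arrays (-1.30 ± 0.20, adjusted p = 1.64e-05). In p53- Rb- arrays it read 564.3, 532.9 and 563.5, and in p53- Rb- Myc+ arrays 179.4, 231.7 and 280.6 (-1.23 ± 0.20, adjusted p = 3.47e-05). Its 9 arrays without the Myc+ label lay between 491.4 and 564.3, and neither p53 loss (adjusted p = 0.935) nor Rb loss (adjusted p = 0.719) passed. Jund, the JUN protein made most steadily in resting cells, fell from 919.4 ± 120 to 621.7 ± 54.3 in p53- cells (-0.55 ± 0.15, adjusted p = 0.00664, lost when each array was centred on its median, adjusted p = 0.0828). In p53- Rb- cells Jund fell from 1146 ± 76.4 to 602.5 ± 47.4 (-0.91 ± 0.15, adjusted p = 4.55e-05). Jun, the classical partner of Fos, was highest in p53- Rb- arrays at 577 ± 27.3 and lowest in p53- Rb- Myc+ arrays at 271.2 ± 34.2 (-1.05 ± 0.16, adjusted p = 1.03e-05). Its fall with Myc+ in p53- cells, from 485.9 ± 51.6 to 353.1 ± 24.3 (-0.44 ± 0.16, adjusted p = 0.0324), was lost in 7 of 19 alternatives, among them centring (adjusted p = 0.252) and leaving out p53- replicate 2 or 3 or p53- Myc+ replicate 1 or 2.

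Counted over the comparisons, most members passed with the Myc+ label. In p53- cells 6 of the 10 fell (Fos, Fosb, Jun, Junb, Jund and Atf3) and 2 rose (Fosl1 and Egr1), against 20.2% of all genes that fell, 13.1% that rose and 33.3% that passed in either direction. The arrays did not overlap for 9 of the 10, as for 42.6% of all genes. In p53- Rb- cells 9 fell and Fosl1 rose, against 18.7% and 17.6% of all genes (36.3% together), and none of the 10 overlapped, as for 51.2% of all genes. The median change of the members was -0.49 and -1.05, beside -0.09 and 0.12 for all genes. Egr1 moved in opposite directions here, from 180.7 ± 77.9 to 374.1 ± 44.3 in p53- cells (1.05 ± 0.23, adjusted p = 0.000788) and from 621.3 ± 191 to 297.2 ± 44.7 in p53- Rb- cells (-0.99 ± 0.23, adjusted p = 0.00131). Egr2 did not pass in p53- cells (-0.14 ± 0.22, adjusted p = 0.684) and fell in p53- Rb- cells (-2.34 ± 0.22, adjusted p = 1.12e-08).

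With p53 loss 3 members fell (Fos, Egr1 and Egr2) and Fosb rose, against 9.72% and 19.3% of all genes (29% together). The arrays did not overlap for 8 members, as for 40.3% of all genes. With Rb loss in p53- cells Egr1 and Egr2 rose and no member fell, against 9.36% and 10.4% of all genes (19.8% together), and 6 did not overlap, as for 40% of all genes. Jund did not pass there (limma, unadjusted p = 0.0476, adjusted p = 0.145). Limma with array weights called 5 members, all higher, and 8518 of all 19938 genes, 3805 higher and 4713 lower. The shares of all genes that rose and fell depended on scaling. With each array centred on its median they were 11.6% and 16.3% with p53 loss, 17.4% and 5.86% with Rb loss, 19.2% and 14.9% with Myc+ in p53- cells, and 13.1% and 20.7% with Myc+ in p53- Rb- cells. Centring then called 5 members lower and 1 higher with p53 loss, 3 higher with Rb loss, 4 lower and 2 higher with Myc+ in p53- cells, and 9 lower and none higher with Myc+ in p53- Rb- cells. The comparisons of p53- arrays with WT, p53- Rb- and p53- Myc+ arrays share the p53- arrays.

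The order of group means differed between members. Fosb and Jun were highest in p53- Rb- and then p53- arrays, which did not differ beyond the test (adjusted p = 0.982 and 0.282), and Atf3 in p53- and then p53- Rb- arrays (adjusted p = 0.82). Jund and Fosl2 were highest in WT and then p53- Rb- arrays (adjusted p = 0.873 and 0.141). For Junb, the 3 groups without the Myc+ label were neighbours that did not pass (adjusted p = 0.817 and 0.935), and the step from them to the Myc+ groups did (adjusted p = 0.00013). For Fos the steps from WT to p53- Rb- arrays (adjusted p = 0.000843) and from p53- to p53- Rb- Myc+ arrays (adjusted p = 5.62e-09) passed, and those between p53- Rb- and p53- arrays and between both Myc+ groups (adjusted p = 0.769) did not. Egr1 was lowest in p53- arrays, below the p53- Rb- Myc+ arrays next above (adjusted p = 0.0162), while Egr2 was lowest in p53- Rb- Myc+ arrays, which did not differ beyond the test from p53- Myc+ arrays (adjusted p = 0.103).

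**Figure D2:**
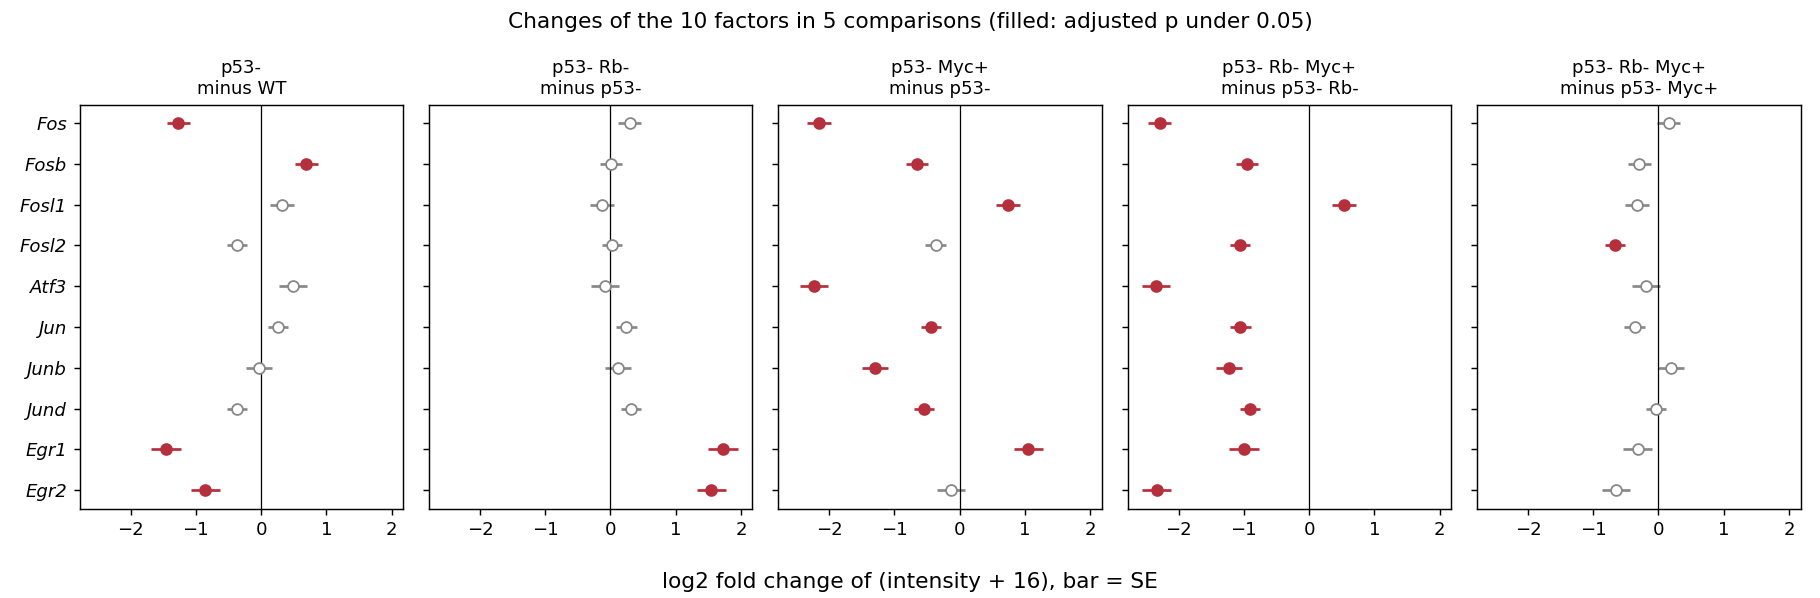
Log2 fold change of intensity plus 16 (horizontal axis) with SE for the 10 factors (rows) in 5 comparisons (panels), filled red where the adjusted p was under 0.05. With the Myc+ label most points lie left of 0 and Fosl1 lies right, and with the Rb- label in p53- cells Egr1 (1.73) and Egr2 (1.55) stand alone.

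The last question was whether Rb loss had the same effect with and without the Myc+ label. Among arrays labelled Myc+, Fosl2 fell and the other 9 members did not pass, against 4.69% of all genes that passed (3.29% higher and 1.4% lower, or 2.39% and 1.8% with centring). The arrays did not overlap for 5 members, as for 20.5% of all genes. Egr1 changed by -0.32 ± 0.23 there (adjusted p = 0.575) and Egr2 by -0.65 ± 0.22 (adjusted p = 0.103). Before adjustment the limma p was 0.00689 for Egr2 and 0.028 for Jun (adjusted p = 0.246). The difference between both Rb comparisons, tested in the same fit, passed for 3 of 10 members, all lower with Myc+, against 4.86% of all genes that were lower and 8.78% higher (13.6% together, or 10.4% lower and 4.22% higher with centring). It was -2.04 ± 0.32 for Egr1 (adjusted p = 0.000172) and -2.20 ± 0.31 for Egr2 (adjusted p = 4.77e-05). For Fosl2 it was -0.69 ± 0.22 (adjusted p = 0.0392), a call that was lost in 11 of 24 alternatives, each of them without a single array (adjusted p from 0.0025 to 0.12 over all alternatives, the highest without p53- replicate 1). The intervals of the difference for Fos (-0.657 to 0.387), Junb (-0.512 to 0.662) and Atf3 (-0.728 to 0.523) included 0. Those for Fosb, Fosl1 and Jund did too. For Jun the difference was -0.61 ± 0.22, with an interval of -1.07 to -0.154 that excluded 0. The Jun difference did not pass (adjusted p = 0.0691), but it passed in 7 of 24 alternatives. Rb1 itself was low in p53- Myc+ arrays, so the labels do not give the Rb level of that group.

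**Figure D3:**
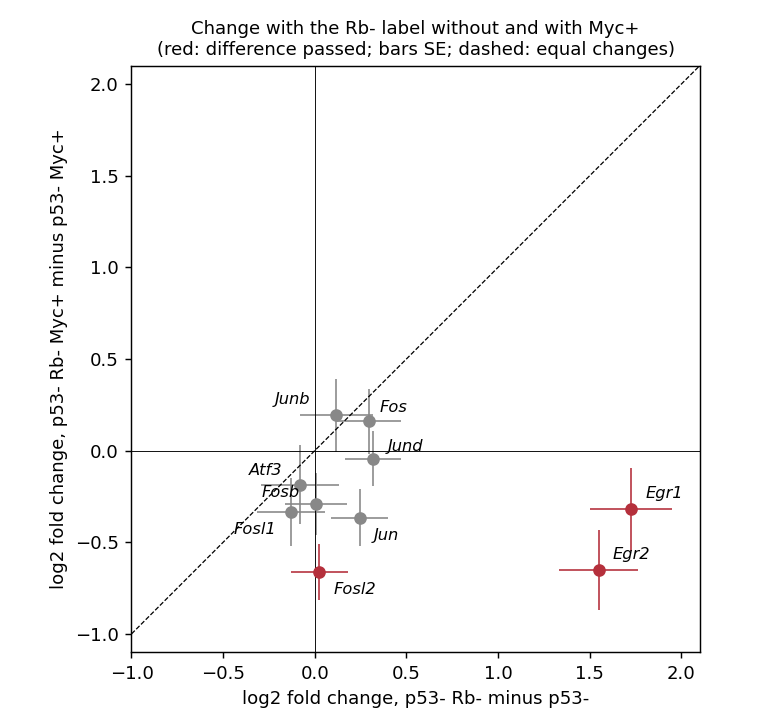
Log2 fold change with the Rb- label in p53- cells (horizontal axis) against that in p53- Myc+ cells (vertical axis) for the 10 factors, with SE bars and a dashed line of equal changes. Egr1 and Egr2 lie far right of the line, Fosl2 below it, and the other 7 factors, in grey, did not differ beyond the test.

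Genes around the factors were read from 5 lists, in which 87 of 96 entries were measured. In p53- cells with the Myc+ label 17 of 18 genes known as AP-1 targets fell and none rose, with a median change of -2.19 beside -0.09 for all genes, of which 20.2% fell. Cd44, a hyaluronan receptor, went from a mean of 2045 to 24.66 (-5.67 ± 0.17, adjusted p = 3.36e-17), and Mmp9, a gelatinase, from 992 to 16.88 (-4.95 ± 0.17, adjusted p = 2.13e-16). Lif, a cytokine gene, fell too (-3.85 ± 0.18, adjusted p = 5.63e-14). The Myc+ means of these 3 genes lay below the array medians, so the size of their changes depends on the constant added: with 1 and with 64 added it was -6.35 and -4.57 for Cd44, -5.85 and -3.70 for Mmp9 and -4.33 and -3 for Lif. Of 26 other immediate early genes 18 fell and none rose, with a median of -1.004, led by the kinase gene Plk2 (-2.56 ± 0.15, adjusted p = 4.81e-12), the matricellular gene Ccn2 (-2.72 ± 0.19, adjusted p = 8.9e-11) and Ier3 (-2.23 ± 0.16, adjusted p = 1.52e-10). In p53- Rb- cells all 18 measured AP-1 targets and 18 of 26 other immediate early genes fell, and 1 of the latter rose. Of all genes 18.7% fell and 17.6% rose in p53- Rb- cells, and 13.1% rose in p53- cells. The 6 luminal markers fell in both comparisons. Of 6 basal markers 5 fell and Acta2 rose in p53- cells (0.57, adjusted p = 0.0182), and all 6 fell in p53- Rb- cells. Of 8 fibroblast markers 5 rose and 2 fell in p53- cells, and 1 rose and 6 fell in p53- Rb- cells. Of 7 leukocyte markers 4 fell in p53- cells, and 3 fell and Cd3e rose in p53- Rb- cells; of 6 endothelial markers 4 fell, and then 3 fell and Vwf rose; of 4 adipocyte markers 1 rose and 1 fell in each. Their part in the changes of the AP-1 factors and targets was not tested, and fewer cells of a type and less RNA per cell cannot be told apart in such bulk samples.

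Among upstream genes, Egfr, the EGF receptor gene, fell with Myc+ from 641.3 to 212.4 in p53- cells (-1.51 ± 0.17, adjusted p = 2.43e-07), and 4 of 14 measured genes of ERK and JNK input and ternary complex factors fell there while 1 rose. Of all genes 20.2% fell and 13.1% rose there, and this list lay near the 33.3% that passed in either direction. Elk3, an SRF partner, changed by -0.80 ± 0.16 (adjusted p = 0.00039) and Mrtfa, an SRF coactivator, by -0.77 ± 0.18 (adjusted p = 0.00151). MAP kinase feedback inhibitors fell in 8 of 13 and rose in 2, with a median of -1.23: the phosphatase genes Dusp4 (-1.94 ± 0.17), Dusp1 (-1.66 ± 0.16) and Dusp6 (-1.90 ± 0.19) led (adjusted p = 6.03e-09, 1.43e-08 and 4.43e-08). Among arrays labelled Myc+, 2 of 13 feedback inhibitors rose with the Rb- label and none fell, against 3.29% and 1.4% of all genes. Dusp1 rose by 1.37 ± 0.16 (adjusted p = 2.62e-06) and Dusp4 from a mean of 81.44 to 172.3. Fos changed by 0.16 (adjusted p = 0.769) and Junb by 0.19 (adjusted p = 0.743) there.

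Of the EGR corepressors, Nab2, which EGR proteins induce, rose with the Rb- label in p53- cells from 172.3 to 334.2 (0.90 ± 0.18, adjusted p = 0.00101) and with the Myc+ label from 172.3 to 514.4 (1.51 ± 0.18, adjusted p = 3.67e-07). Egr1 rose in both comparisons, which share the p53- arrays. With Myc+ in p53- Rb- cells Nab2 rose too, from 334.2 to 520.3 (0.60 ± 0.18, adjusted p = 0.0102), while Egr1 fell, and with p53 loss Egr1 fell while Nab2 did not pass (198 to 172.3, adjusted p = 0.442). Nab1 fell with the Rb- label and with Myc+ in p53- cells (-0.81 ± 0.18, adjusted p = 0.00319, and -0.53 ± 0.18, adjusted p = 0.0269). Over the list of bZIP partners and EGR corepressors 2 of 16 rose and 4 fell with the Rb- label, and 2 rose and 3 fell with Myc+, among them Crem, a cAMP-responsive factor (-1.76 ± 0.19, adjusted p = 7.08e-08). Of all genes 19.8% passed with the Rb- label and 33.3% with Myc+ in p53- cells. With the Rb- label none of 13 feedback inhibitors passed (the smallest adjusted p was 0.0732, for Spry1), and 2 of 26 other immediate early genes rose and 2 fell: Ier2 was at 0.68 ± 0.19 (adjusted p = 0.0141), Klf2 at -0.995 ± 0.19 (adjusted p = 0.000987) and Klf6 at -0.65 ± 0.17 (adjusted p = 0.00842). Of the 18 AP-1 targets 3 rose and 1 fell there, near the share of all genes that passed (19.8%), Itga5, an integrin gene, by 1.395 ± 0.16 (adjusted p = 5.78e-06) and Tgfb1 by 1.17 ± 0.17 (adjusted p = 4.26e-05). Fibroblast markers rose in 5 of 8 and none fell in that comparison, where their summed intensity went from between 3197 and 3447 to between 5778 and 7299. The other markers that rose there were 2 of 6 basal (Acta2 and Cnn1), 2 of 6 endothelial, 1 of 6 luminal (Elf5), 1 of 7 leukocyte (Lyz2) and 1 of 4 adipocyte markers, and none fell. Of all genes 9.36% rose and 10.4% fell there. The part of these markers in the rise of Egr1 and Egr2 was not tested.

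With p53 loss 3 of 26 other immediate early genes rose and 5 fell, a share near the 29% of all genes that passed. Btg2, an antiproliferative gene that p53 is known to activate, fell (-1.02 ± 0.17, adjusted p = 0.000173), and Klf2 (1.13 ± 0.19, adjusted p = 0.000197) and Klf6 (0.91 ± 0.17, adjusted p = 0.000367) rose while Egr1, Egr2 and Fos fell. Of 13 feedback inhibitors Dusp10 rose (0.62 ± 0.17, adjusted p = 0.00972) and the others did not pass. Leukocyte markers fell in 4 of 7 there, their sum going from between 2041 and 2424 to between 557.1 and 695. Cd14, a monocyte marker, made most of that drop (1566 to 327.8). Lyz2 (288.9 to 17.92, adjusted p = 5.93e-10), Cd68 (128.2 to 65.1) and Itgam (19.84 to 7.976) fell too. Ptprc, the pan-leukocyte marker, rose (19.57 to 43.1, adjusted p = 0.0283). The Ptprc arrays overlapped (WT up to 23.52, p53- down to 22.65), and both means lay below the medians of their arrays. Also 1 of 6 luminal and 3 of 6 basal markers fell, 2 of 6 endothelial fell and 1 rose, 2 of 8 fibroblast fell and 1 rose, and 2 of 4 adipocyte fell. Of all genes 9.72% fell and 19.3% rose with p53 loss. The part of these markers in the fall of the 3 factors was not tested.

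**Figure D4:**
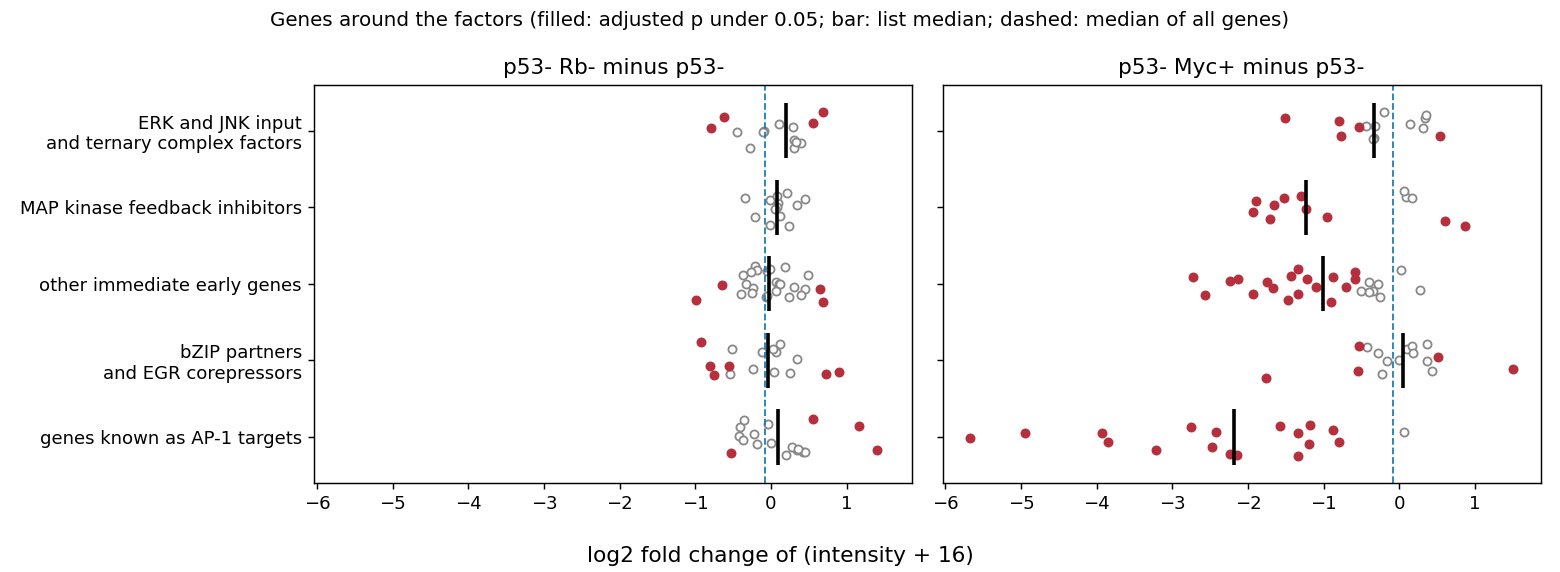
Log2 fold change of intensity plus 16 (horizontal axis) of the genes of 5 lists (rows, a point per gene) with the Rb- label (left) and the Myc+ label (right) in p53- cells, filled red where the adjusted p was under 0.05, with a black bar at each list's median and a dashed line at the median of all genes. With Myc+ the AP-1 targets (median -2.19), feedback inhibitors (-1.23) and other immediate early genes (-1.004) lie to the left, and with Rb- no list median passes 0.20.

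The genes most like a member over the 15 arrays were sought by Pearson correlation among genes at or above the median level, for the member with the widest range in each family. For Fos they were Zfp750 (r = 0.993), Abca3 (r = 0.988) and Cst6 (r = 0.988), and for Junb Irx3 (r = 0.973), the luminal keratin gene Krt8 (r = 0.971) and Dhx32 (r = 0.968). Those nearest to Atf3 were Hbegf (r = 0.983), an EGF receptor ligand gene, Irgm1 (r = 0.983) and Tom1l1 (r = 0.98), and to Egr2 Chst11 (r = 0.981), Lrrc32 (r = 0.963) and Qsox1 (r = 0.962). These values describe 15 arrays that share 5 groups, and for Fos, Junb and Atf3 the arrays form separate sets with and without the Myc+ label, which alone gives a high r.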

How the data were processed

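RNA of 15 samples was amplified with a WT-Ovation Pico kit, per the labels' protocols. The authors deposited a linear intensity per probe set; the submitters' processing notes name Affymetrix Expression Console 1.1. How probe sets were summarised and normalized is not given in the sources used here. Values ran from 4.11e-05 to 8348.1 with no negatives. Of 35556 probe sets 21789 named 1 gene, and for each of 19938 genes the probe set of highest mean was used. The log2 of the intensity plus 16 was fitted by limma (version 3.58.1, under R 4.3.3; lmFit, then eBayes; a mean per group, 10 residual and 11.78 prior degrees of freedom, 2-sided), after a test on simulated data. Precision is limited by the number of arrays.

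The members, gene lists and tests were chosen with earlier results of these data known. Genes named are the members, Rb1 and Myc, up to 3 genes of smallest p per list and comparison, and the 3 genes most like a member; markers were named as checks. Alternatives were the constant, normalization, filters, variance models, the samples fitted, probe set choice, a replicate block and leaving out each array. Same-numbered arrays deviated together in p53- Rb- Myc+ and p53- Myc+ arrays (r = 0.102, 0.192 and 0.379), and in no other comparison were all 3 values over 0.1. The numbers may therefore pair these groups, by the values and not by the labels. The printed results come from the fit without a replicate block, and the block was an alternative for every comparison.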

Additional observations from a re-analysis of the deposited data

Results flagged for a closer look

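The change with the Rb- label differed between cells with and without the Myc+ label for 3 members, by the test of the difference itself. The difference was -2.04 on the log2 scale for Egr1 (limma, adjusted p = 0.000172), -2.2 for Egr2 (adjusted p = 4.77e-05) and -0.687 for Fosl2 (adjusted p = 0.0392). Egr1 and Egr2 kept the call in all 24 alternatives, with adjusted p up to 0.00406 and 0.00199, and Fosl2 in 13 of 24.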

How the results depend on the processing

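Over 60 results (10 members in 5 comparisons and the difference of both Rb comparisons), 28 were called and 24 of these kept the call in every alternative; none reversed. The exceptions were Fosl1 and Jun with the Myc+ label, Jund with it under centring and Fosl2 in the difference, as given above. Array weights called 5 members with Rb loss in p53- cells in place of 2, and 2 with Rb loss among Myc+ arrays in place of 1, as did leaving out p53- Rb- Myc+ replicate 3. Over single arrays left out, the members called ranged from 1 to 2 in that comparison. Array weights called 8518 of all genes with Rb loss in p53- cells (3950 otherwise) and 5404 in the difference (2719). Testing all probe sets called 8946 with p53 loss (5780) and 5951 with Rb loss in p53- cells. Leaving out single arrays, all genes called ranged from 3470 to 6094 with p53 loss, from 2098 to 4725 with Rb loss in p53- cells and from 1762 to 3234 in the difference. The lowest of these came without p53- replicate 3 (3470 with p53 loss, 1762 in the difference) or p53- Rb- replicate 3 (2098), and p53- replicate 1 (2483) or 3 (2130) and p53- Rb- Myc+ replicate 2 (1795 in the difference) also moved a count by over 1.5 times. A replicate block over all 15 arrays changed 0 of the 60 calls; within the 2 groups alone, a choice made after seeing the data, it ended that of Jun in p53- Myc+ against p53- arrays (adjusted p = 0.0756). Centring moved the median of all genes by over 0.1 with p53 loss (0.12 to -0.05), Rb loss (-0.08 to 0.10) and Myc+ in p53- cells (-0.09 to 0.08). Fosb was left out by the filter on the median level.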
